A study of Drosophila melanogaster with 6 samples.

Results

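The respiratory complexes II to V of the inner mitochondrial membrane were examined through their nuclear genes in an RNA immunoprecipitation sequencing (RIP-seq) experiment on the protein Isha of Drosophila melanogaster. A gene was taken as a member when its dm6 symbol began with COX and a digit, ATPsyn or UQCR-, or was RFeSP, Cyt-c1, SdhA, SdhB, SdhC or SdhD, with genes of the mitochondrial chromosome and of chromosome 4 left out. The rule used symbols only, not measured values. It found 45 of the 17612 genes in the table: 4 of complex II, 11 of complex III, 16 of complex IV and 14 of complex V.

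Both groups came from nuclear extract of wild-type Oregon R embryos, collected over 0 to 24 h and so of mixed stages. In the Isha RIP group, extract precleared on beads with preimmune rabbit serum was put on beads with a rabbit antiserum, Isha-Rb94, and the bound RNA was sequenced. The input group was sequenced from nuclear extract with no antibody step. Each group had 3 libraries, and the study asked which transcripts, that of su(Hw) among them, are recovered with Isha in vivo. Pull-down by the beads or serum alone was not analysed here and cannot be told apart from binding to Isha. Whether the 3 libraries of a group represent independent collections is not labelled, and the p-values then cover only their spread, which may be technical. Library totals were 8386414 to 14342543 counts in Isha RIP and 29344529 to 31680173 in input.

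Complex II, succinate dehydrogenase, passes electrons from succinate to ubiquinone. Complex III hands them on to cytochrome c, complex IV (cytochrome c oxidase) gives them to oxygen, and complex V (ATP synthase) uses the proton gradient that complexes III and IV help to build to make ATP. Complex II is encoded in the nucleus alone, while complexes III, IV and V also contain subunits made inside the mitochondrion. The subunits of 1 complex assemble in fixed proportions. Several fly subunits have a second gene copy, marked by the suffix L, and such duplicates of nuclear respiratory genes are known for expression in the testis.

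Levels are given in CPM (counts scaled to a common library size after adjustment of each total by a TMM factor). Of the 45 members, 35 had enough counts to be tested: all 30 without the suffix L, and 5 of the 15 L paralogs. In Isha RIP, 18 of the 35 were lower than in input, 7 were higher and 10 did not pass (edgeR quasi-likelihood test, adjusted p under 0.05 after Benjamini-Hochberg adjustment over all genes). Of all 11764 tested genes, 57.4% were called, 30.4% lower and 27.0% higher. A fall of at least 2-fold was called for 8 of the 35, and for 12.8% of all tested genes, and a rise of at least 2-fold for 0 of the 35 (edgeR, also at an unadjusted p under 0.05, and 0 by DESeq2 and limma-voom), and for 8.63% of all tested genes. All 3 RIP libraries lay below all 3 input libraries for 18 of the 35, and for 34.0% of all tested genes. Fold changes are relative: the scaling sets the typical transcript near 0, and over all tested genes the log2 fold change had a median of -0.05.

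The members did not move together. The log2 fold changes of all 35 ran from -2.06 to 0.94, with a median of -0.27. Those of the 30 members without the suffix L ran from -2.06 to 0.60, with a median of -0.41, and 18 of these 30 were lower and 7 higher. The count of higher members was 3 without RIP replicate 3. In a fit without the genes that overlap another, the median was -0.17 over the 21 members that remained. The 21 tested members without an overlap had a median of -0.15 in the main fit. Each complex except complex II held called members in both directions in the main fit. Without RIP replicate 3, complex III held no higher call, since those of Cyt-c1 and UQCR-14 were both lost. The median was -0.72 for the 4 tested genes of complex II, -0.15 for the 9 of complex III, -0.26 for the 11 of complex IV and -0.47 for the 11 of complex V. Without the L paralogs, which had few counts, it was -0.48 for 8 genes of complex III, -0.31 for 8 of complex IV and -0.64 for 10 of complex V. The summed share of counts in the members was 0.324% ± 0.00472 in Isha RIP and 0.397% ± 0.00306 in input (SD, n = 3 each).

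**Figure D1:**
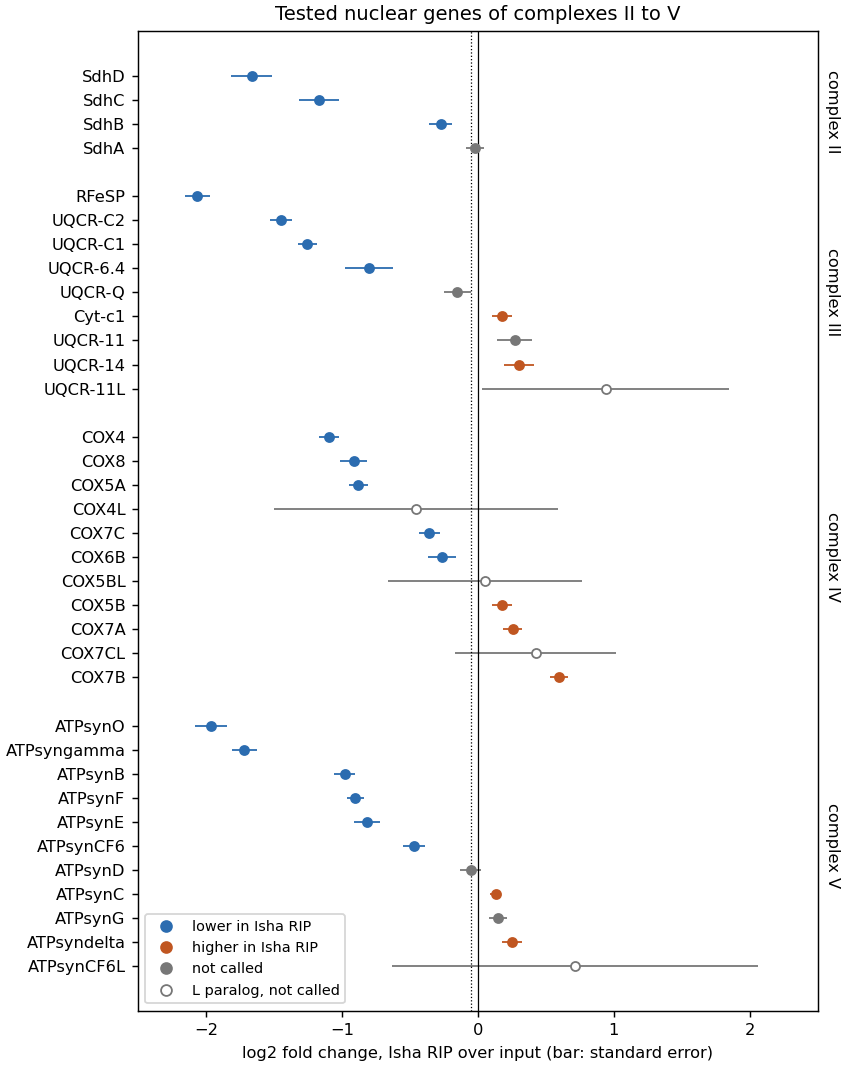
Log2 fold change of Isha RIP over input for the 35 tested members by complex, with the standard error as a bar, coloured by call, open symbols for L paralogs; the dotted line is the median of all tested genes, -0.05. The 18 genes called lower reach down to -2.06 and the 7 called higher reach up to 0.60.

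In complex II the membrane anchors stood apart from the catalytic subunits. SdhC and SdhD anchor the enzyme in the membrane and help to form the ubiquinone site. SdhD had 14.1, 12.5 and 11.6 CPM in the RIP libraries and 43.3, 35.4 and 42.0 CPM in the input libraries. All RIP values were below all input values, with a log2 fold change of -1.67 ± 0.15 (SE; edgeR adjusted p = 1.91e-09), a 3.17-fold fall. SdhC had 14.4, 15.0 and 13.9 CPM in RIP and 33.5, 32.2 and 31.5 CPM in input, a log2 fold change of -1.17 ± 0.15 (SE; edgeR adjusted p = 3.76e-07). SdhA, the flavoprotein that binds succinate, had 133, 127 and 129 CPM in RIP against 135, 129.8 and 131 CPM in input. Its groups overlapped, and its log2 fold change of -0.02 ± 0.07 (SE) did not pass (edgeR adjusted p = 0.778). SdhB, the iron-sulfur subunit and the highest of the complex per length in input, lay between these. It had 97.5, 85.5 and 108 CPM in RIP against 116, 126 and 111 CPM in input, with separate groups and a log2 fold change of -0.27 ± 0.08 (SE; edgeR adjusted p = 0.00866). That call was lost without RIP replicate 2 (-0.19) or input replicate 2 (-0.22), and with a gene length offset (-0.08).

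The same values can be read as count ratios within 1 library, which need no scaling between libraries. In each complex the pair was the member with the lowest and the member with the highest log2 fold change, L paralogs left out, so the difference in these ratios restates the fold changes and is no further evidence. There were 9.81 ± 0.775 SdhD counts per 100 SdhA counts in the RIP libraries, against 30.4 ± 2.76 in input (SD, n = 3 each). On dm6, SdhD occupies chromosome 3R, 23759483 to 23760600, minus strand, and 13.9% of its exon bases lie in exons of PTPMT1 on the other strand. SdhA occupies chromosome 2R, 19391863 to 19395971, minus strand.

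Complex III covered the widest range among genes without the suffix L. RFeSP, the Rieske iron-sulfur protein that takes electrons from ubiquinol, had the lowest log2 fold change and the smallest adjusted p of all members. It had 40.7, 34.9 and 43.1 CPM in RIP and 153, 174 and 172 CPM in input. The groups were far apart, with a log2 fold change of -2.06 ± 0.09 (SE; edgeR adjusted p = 4.48e-15), a 4.18-fold fall that ranked 307 from the lowest of the 11764 tested genes. RFeSP (FBgn0021906) occupies chromosome 2L, 1612429 to 1614160, minus strand, with a summed exon length of 1118 bases. CG14352, which covers 13.2% of these on the other strand, was at 3.40, 2.60 and 5.68 CPM in RIP and 3.45, 3.33 and 3.56 CPM in input.

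The core proteins UQCR-C1 and UQCR-C2, large matrix-side subunits without redox centres, both fell. UQCR-C2 had 48.4, 48.0 and 49.6 CPM in RIP against 131, 133 and 135 CPM in input (log2 fold change -1.45 ± 0.08 SE, edgeR adjusted p = 2.79e-13). UQCR-C1 had 97.7, 84.0 and 97.5 CPM in RIP against 218, 219.7 and 229.8 CPM in input (log2 fold change -1.25, edgeR adjusted p = 4.44e-13). Both genes had separate groups. The small subunit gene UQCR-6.4 was lower as well, at 20.4 CPM ± 6.99 in RIP and 35.3 CPM ± 2.98 in input (SD, n = 3 each), and RIP replicate 1, at 28.4 CPM, was the highest of its group. Of its exon bases 40.5% lie in exons of POSH on the other strand.

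Cyt-c1, the haem subunit that reduces cytochrome c and the electron acceptor of RFeSP, did not fall. Its level was 154, 161 and 165 CPM in RIP and 154, 125 and 146 CPM in input, so that RIP replicate 1 and input replicate 1 nearly touched. The log2 fold change of 0.18 ± 0.07 (SE) was called at an edgeR adjusted p of 0.0464. This call was lost without any 1 of RIP replicates 1, 2 and 3 or input replicates 2 and 3, with values of 0.09 to 0.20, and when overlapping genes were left out (0.16). UQCR-14, a small subunit, had 50.6, 64.2 and 67.1 CPM in RIP against 50.1, 46.8 and 51.3 CPM in input, and the groups overlapped (log2 fold change 0.30, edgeR adjusted p = 0.0225). Its call was lost without RIP replicate 2 or 3 or input replicate 2 (0.21 to 0.26) and with a gene length offset (0.24). The small subunit genes UQCR-Q and UQCR-11 did not pass, with log2 fold changes of -0.15 ± 0.10 and 0.27 ± 0.13 (SE). There were 80.3, 54.3 and 64.3 RFeSP counts per 100 UQCR-14 counts in the RIP libraries, and 306, 372 and 335 in the input libraries.

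**Figure D2:**
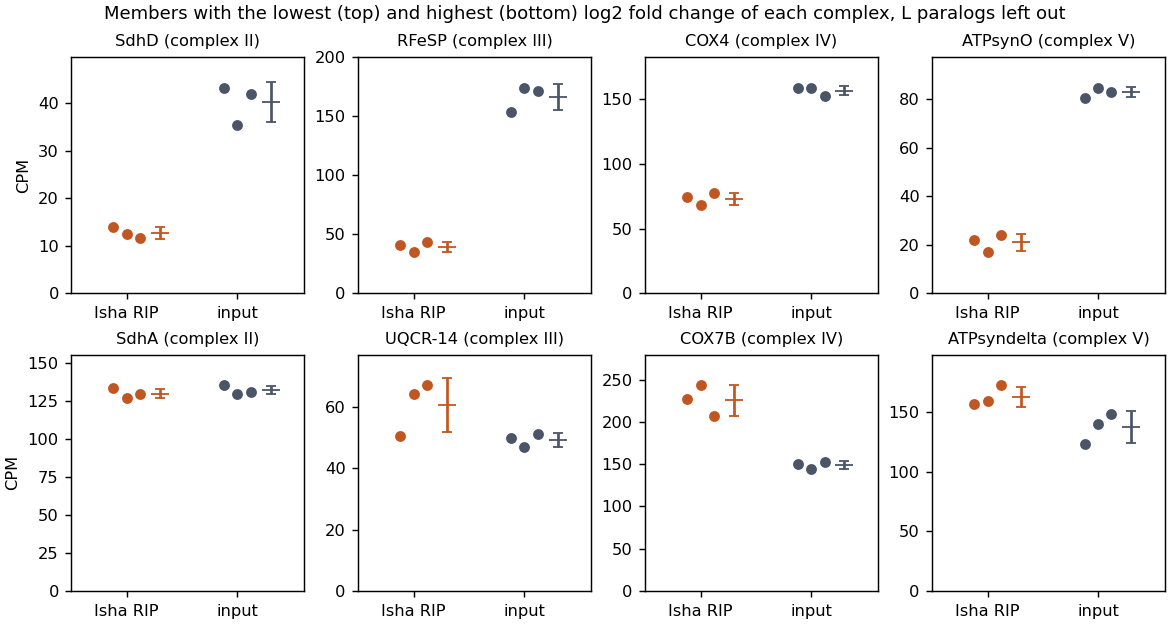
CPM in each library for the members with the lowest (top row) and highest (bottom row) log2 fold change of each complex, L paralogs left out; points are libraries, Isha RIP on the left and input on the right, and the bars beside them are mean ± SD (n = 3), on axes that start at 0. In the top row all RIP libraries lie below all input libraries, while SdhA and UQCR-14 overlap between the groups.

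In complex IV the nuclear subunits surround a core made by the mitochondrial genes, and 5 of the 11 tested genes were lower, 3 higher and 3, all L paralogs, did not pass. COX4, the largest nuclear subunit, had 74.1, 68.0 and 77.4 CPM in RIP and 159, 158 and 153 CPM in input. The groups were separate, with a log2 fold change of -1.095 ± 0.074 (SE; edgeR adjusted p = 1.38e-11). COX5A, a matrix-side subunit, was 1.84-fold lower, at 99.3 CPM ± 5.78 in RIP and 182 CPM ± 3.59 in input (SD, n = 3 each). COX8, a small membrane-spanning subunit, was 1.89-fold lower, at 42.0 CPM ± 4.71 in RIP and 78.9 CPM ± 2.51 in input. COX7C, another small membrane-spanning subunit, had a smaller fall, at a log2 fold change of -0.36.

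COX6B, on the intermembrane side, was called lower on uneven RIP libraries. It had 125, 132 and 85.4 CPM in RIP against 135, 135 and 139 CPM in input. RIP replicate 3 was low, and without it the log2 fold change was -0.09, against -0.26 with all libraries (edgeR adjusted p = 0.0352). The call was also lost without any 1 input library (-0.25 to -0.27), by DESeq2 (-0.22), and with library totals only, protein-coding genes only, a length offset or thinning (-0.24 to -0.20). Its exons share 74 bases with CG18809 on the same strand, and CG18809 was at 91.6 CPM ± 11.3 in RIP and 47.1 CPM ± 4.16 in input; its part in the result was not tested.

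The genes COX7B, COX7A and COX5B went the other way. COX7B (FBgn0040793), a small subunit at chromosome 3L, 17425477 to 17426282, plus strand, had 227, 243 and 207 CPM in RIP and 151, 144 and 152 CPM in input. Every RIP library was above every input library, and its log2 fold change of 0.60 ± 0.06 (SE; edgeR adjusted p = 4.11e-08), a 1.51-fold rise, was the highest among called members. COX7A, also a small membrane-spanning subunit, had 144, 144 and 139 CPM in RIP against 118, 109.7 and 129 CPM in input (log2 fold change 0.25, edgeR adjusted p = 0.00429). COX5B, which holds a zinc ion, had 122, 119 and 130.4 CPM in RIP against 118, 105 and 105 CPM in input (0.18, edgeR adjusted p = 0.0439), and lost its call without RIP replicate 1 or 3 or input replicate 2 or 3 (0.13 to 0.18), with no count filter (0.17), with a replicate block (0.18) and when overlapping genes were left out (0.16). Per 100 COX7B counts there were 32.6, 28.0 and 37.4 COX4 counts in RIP and 105, 109.9 and 100.4 in input.

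Complex V consists of a catalytic F1 head on the matrix side, a membrane-bound Fo part with a rotating ring, and a central and a peripheral stalk that join them. ATPsynO, the protein that fixes the peripheral stalk to the head, had 22.1, 17.1 and 24.0 CPM in RIP and 80.7, 84.7 and 83.2 CPM in input. The log2 fold change was -1.96 ± 0.12 (SE; edgeR adjusted p = 1.85e-12), a 3.89-fold fall, and the groups were far apart. ATPsyngamma, the shaft of the central stalk, had 34.0, 32.9 and 34.7 CPM in RIP and 111, 118 and 106 CPM in input (log2 fold change -1.72 ± 0.09 SE, edgeR adjusted p = 1.78e-13). It is a gene with a single exon block at chromosome 3R, 29747704 to 29749163, minus strand.

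The other subunits of the peripheral stalk and membrane part ran in a graded order, with log2 fold changes of -0.98 to 0.15. ATPsynB of the peripheral stalk was 1.97-fold lower, at 67.1 CPM ± 2.64 in RIP and 133 CPM ± 3.60 in input (SD, n = 3 each). The membrane subunits ATPsynF and ATPsynE fell 1.87-fold and 1.76-fold, and the stalk subunit ATPsynCF6 fell 1.39-fold. ATPsynD, also of the peripheral stalk, had overlapping groups and a log2 fold change of -0.05 ± 0.08 (SE). The membrane subunit ATPsynG lay above input in every RIP library, at 0.15 ± 0.07 (SE), but did not pass (edgeR adjusted p = 0.0562).

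ATPsynC encodes the subunit of the rotating ring, which is present in many copies per enzyme. It had 752, 777 and 713 CPM in RIP against 694, 674 and 679 CPM in input, all RIP values being higher (log2 fold change 0.13 ± 0.04 SE, edgeR adjusted p = 0.00987). ATPsyndelta, of the central stalk, had 157, 159.7 and 172 CPM in RIP against 123, 140.5 and 149 CPM in input (log2 fold change 0.25 ± 0.07 SE, edgeR adjusted p = 0.00608). Its call was lost without RIP replicate 3 (0.20) or input replicate 1 (0.17) and with a gene length offset (0.07). Of its exon bases 35.6% lie in exons of CG2962 on the opposite strand, a gene measured at 1543 CPM ± 23.7 in RIP and 1371 CPM ± 44.6 in input. Per 100 ATPsyndelta counts there were 14.1, 10.7 and 13.9 ATPsynO counts in RIP and 65.6, 60.3 and 55.9 in input.

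No source used here gives the strand setting of the counting, but a member locus bears on it. All 523 exon bases of UQCR-14 lie in exons of CG32576 on the opposite strand. UQCR-14 received 447, 543 and 969 counts in the RIP libraries and 1554, 1365 and 1614 in the input libraries. CG32576 covers all of those bases and more, but received 143, 152 and 206 counts in RIP and 557, 576 and 563 in input. Whole reads assigned without regard to strand would give CG32576 at least as many counts as UQCR-14, or leave UQCR-14 with none. At this locus the counts were therefore kept apart by strand. In all, 14 of the 35 tested members share exon bases with another gene. Of those 14, 9 were lower and 2 higher, and of the 21 without an overlap 9 were lower and 5 higher. Of all tested genes, 30.4% were lower and 27.0% higher. In a fit without overlapping genes, 2343 of 7670 tested genes were lower and 2053 higher. The difference between members with and without an overlap was not tested.

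Levels of different subunits were compared in TPM, in which counts are divided by the summed exon length and scaled to the same sum over protein-coding genes in each library. Among the 30 members without the suffix L, COX7B was the highest in both groups, at 1408 TPM ± 118 in RIP and 872 TPM ± 24.8 in input (SD, n = 3 each). ATPsynC was second in both, at 981 TPM ± 45.2 in RIP and 841 TPM ± 11.1 in input, followed in input by ATPsynF at 810.5 TPM ± 5.42. The lowest was SdhD in RIP, at 37.0 TPM ± 3.63, and UQCR-11 in input, at 48.7 TPM ± 5.74. The exon length counted for UQCR-11 was 1613 bases and that for ATPsyndelta 3817 bases, the longest of the members tested. The standard deviation of log2 TPM over the 30 genes was 1.26 to 1.34 in the 3 RIP libraries and 0.985 to 0.991 in the 3 input libraries. Every RIP library was thus wider than every input library, a difference that was not tested. This difference comes from the same counts as the fold changes and is no further evidence. The spread over other genes was not compared. In extract from whole embryos, fewer cells of a type and less RNA per cell cannot be told apart, so these levels average over tissues.

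The 15 L paralogs were low, at no more than 5.32 CPM in any library. UQCR-14L, COX6AL2, COX6CL, COX7AL2 and ATPsynGL had 0 counts in all 6 libraries, where 0 allows up to 3 counts, or up to 0.209 to 0.358 CPM per RIP library and 0.0947 to 0.102 CPM per input library (counting error only). UQCR-6.4L, COX6AL, COX7AL, ATPsynbetaL and ATPsynepsilonL had some counts but were not tested, at no more than 1.54 CPM in a RIP library and 0.618 CPM in an input library. The highest was COX7CL, with 1.70, 5.32 and 2.21 CPM in RIP and 3.38, 0.686 and 2.73 CPM in input. Per length, COX7CL had 19.5 TPM ± 12.5 in RIP and 13.5 TPM ± 8.35 in input (SD, n = 3 each). COX5BL had 1.02, 1.54 and 1.52 CPM in RIP against 1.06, 1.17 and 1.72 CPM in input, while COX5B, which is next to it on chromosome 2L, had 124 CPM ± 5.92 in RIP and 109 CPM ± 7.71 in input (SD, n = 3 each). UQCR-11L had 1.93, 2.13 and 0.415 CPM in RIP against 0.548, 1.13 and 0.603 CPM in input. ATPsynCF6L had 0.227, 0.591 and 0.485 CPM in RIP against 0.515, 0.275 and 0 CPM in input. The groups overlapped in all of these. The log2 fold changes were 0.43 ± 0.59 for COX7CL, 0.05 ± 0.71 for COX5BL, 0.94 ± 0.91 for UQCR-11L, 0.72 ± 1.35 for ATPsynCF6L and -0.45 ± 1.05 for COX4L (SE). Of these 5 genes, 0 passed by edgeR (adjusted p of 0.397 to 0.958; also 0 at an unadjusted p under 0.05), DESeq2 or limma-voom. Of 8 marker genes of the adult testis, 0 reached a mean of 1 CPM in input and 3 (Mst84Da, Mst84Db and dj) had no counts, with a summed level of 0.237 to 1.87 CPM in RIP and 0.129 to 0.508 CPM in input. All matched markers of maternal germ line (4 of 5 names), early zygotic embryo (5), embryonic neurons (4) and embryonic muscle (4) reached 1 CPM in input. The 4 neuronal markers were all higher in RIP, with a summed level of 1233 to 1313 CPM in RIP and 675 to 720 CPM in input. Of the muscle markers, 2 were lower and 2 higher (6862 to 7130 CPM in RIP and 7745 to 7894 CPM in input). The 4 maternal germ line markers did not pass, and of the 5 early zygotic markers 1 was lower and 2 higher. Of all tested genes, 27.0% were higher and 30.4% lower. The part of these markers in the members' values was not tested.

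Exon length, position and input level were set against the fold changes as descriptions. Over the 30 members without the suffix L, Spearman's rho of the log2 fold change was -0.133 with exon length, -0.0554 with mean input CPM, 0.335 with the number of exon blocks and 0.117 with genomic span. All these values come from the same 6 libraries. Over the 10740 tested protein-coding genes, rho was 0.199 with exon length and 0.179 with the number of exon blocks. Tested members spanned 410 to 3817 bases of exon. Of the 8386 tested protein-coding genes in that range, 34.6% were lower and 21.7% higher, with a median of -0.20. With an offset that removes the smooth trend on exon length, 16 members were lower and 7 higher, with a median of -0.20. In that fit, 3756 of all 11764 tested genes were lower and 2897 higher, with a median of -0.09. By chromosome arm, 8 of the 11 tested members on 3R were lower and 2 higher, and 4 of 8 on 2R were lower and 0 higher. That 0 also held by edgeR at an unadjusted p under 0.05, by DESeq2 and by limma-voom. Those 8 include the L paralogs COX4L, COX7CL and UQCR-11L, which had few counts (log2 fold changes -0.45, 0.43 and 0.94). On 3L 3 of 8 were lower and 2 higher, on 2L 2 of 5 were lower and 1 higher, and on X 1 of 3 was lower and 2 higher. Over all arms, 30.4% of tested genes were lower and 27.0% higher. Differences between arms were not tested.

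**Figure D3:**
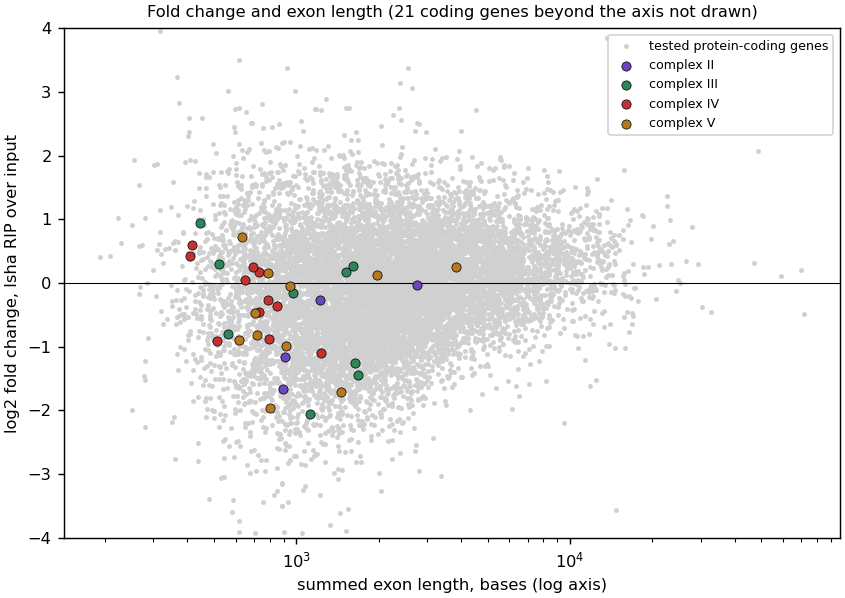
Log2 fold change of Isha RIP over input against summed exon length (log axis) for the 10740 tested protein-coding genes, 21 of them beyond the vertical axis and not drawn, with the 35 tested members coloured by complex. Members of like length lie on both sides of 0.

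Some subunits of the same complexes fall outside the symbol rule. Of 5 such genes, 3 were lower and 2 higher. blw, the catalytic alpha subunit of ATP synthase, was at 151 CPM ± 6.53 in RIP and 329.9 CPM ± 17.4 in input (SD, n = 3 each; log2 fold change -1.12, edgeR adjusted p = 1.38e-13). The complex IV subunits levy and cype fell by 0.74 and 0.90 on the log2 scale. The complex III subunit ox and the ATP synthase epsilon subunit sun were higher, at log2 fold changes of 0.53 and 0.36. ATPsynbeta, the other catalytic subunit, lies on chromosome 4 and had a log2 fold change of -0.37, at 348 CPM ± 19.2 in RIP and 449 CPM ± 12.5 in input. Transcripts of the mitochondrial chromosome were present in the nuclear extract, and those for complex IV also differed among themselves: COX2 was at 55.6 CPM ± 6.19 in RIP and 343 CPM ± 29.1 in input, COX1 at 575 CPM ± 53.4 in RIP and 691 CPM ± 29.6 in input, and COX3 at 2564 CPM ± 97.9 in RIP and 2011 CPM ± 118 in input (SD, n = 3 each).

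Other genes of the pathway are given beside all tested genes, of which 30.4% were lower and 27.0% higher. Cyt-c-p, the cytochrome c of somatic tissue, was lower, at 67.5 CPM ± 4.04 in RIP and 129.8 CPM ± 5.92 in input (SD, n = 3 each). Of 12 tested assembly and copper delivery factors, 4 were lower and 2 higher; the Cox20 gene l(3)87Df (-2.44) and Scox (-1.32), which delivers copper to complex IV, were lower, while Cox17, a copper chaperone, and Coa7 were higher (1.10 and 0.50). Of 12 tested enzymes of the tricarboxylic acid cycle, which feeds the chain, 7 were lower and 4 higher. Mdh2 and mAcon1 had log2 fold changes of -1.54 and -1.02, and kdn, the citrate synthase, and Idh3a had 1.17 and 0.79. Of 5 inner membrane carriers and porin, 3 were lower and 1 higher, with Mpcp2, a phosphate carrier, at -0.91, the ADP/ATP carrier sesB at -0.61 and porin at 0.39. Of 10 tested genes of mitochondrial protein import, 3 were lower (among them CG7394 at -1.07 and Tom70 at -0.74) and 3 higher (among them Tim17b at 0.49), shares near those of all tested genes.

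The regulators listed for nuclear respiratory genes and mitochondrial mRNAs contained no lower call. Of 8 tested, 5 were higher and 0 lower by edgeR, with a median log2 fold change of 0.47. The 0 lower also held for edgeR at an unadjusted p under 0.05, for DESeq2 and for limma-voom. Shares over all tested genes were 27.0% higher and 30.4% lower. ewg, a DNA-binding factor related to the mammalian factor NRF-1, had a log2 fold change of 0.82, srl, the fly PGC-1 coactivator, 0.85, and the RNA-binding protein larp 0.48. The 5 higher genes, these 3 with spoon and clu, had exon lengths of 4642 to 9126 bases, above those of all tested members. The others, Ets97D, TFAM and mtTFB2, had 1242 to 1858 bases and did not pass. The part of exon length in these values was not tested.

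**Figure D4:**
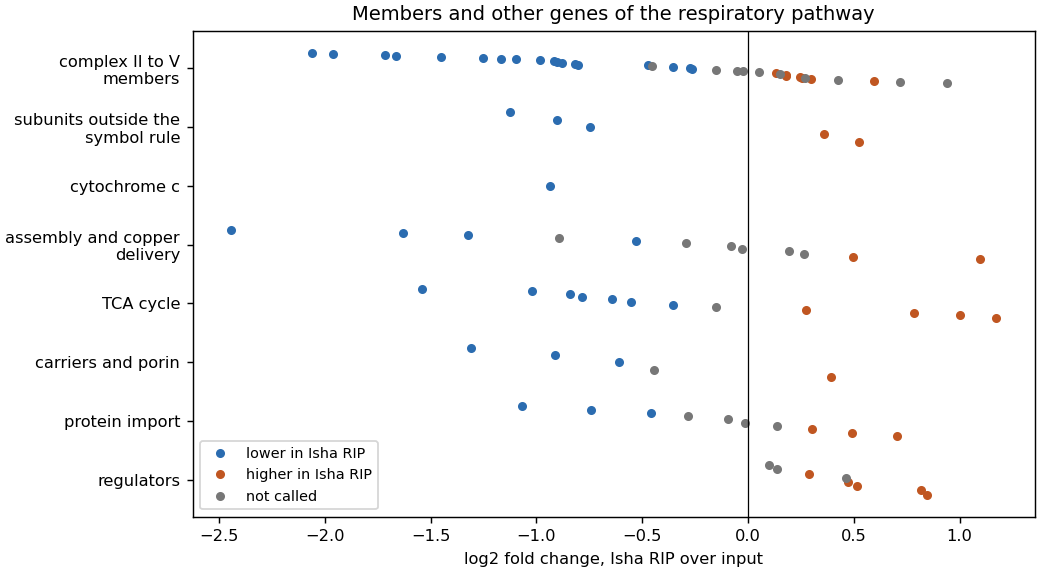
Log2 fold change of Isha RIP over input for the 35 tested members and for the other tested genes of the respiratory pathway by list, coloured by call. Genes called lower and genes called higher occur in all lists but cytochrome c, with 1 tested gene, and the regulators, with 5 higher and 0 lower.

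Next to like gene groups, the members had a smaller share of falls than complex I and the cytoplasmic ribosome. The differences between groups of genes were not tested. Of 34 tested ND- genes of complex I, 27 were lower and 2 higher, with a median log2 fold change of -0.93. Of 72 mitochondrial ribosomal protein genes, 36 were lower and 3 higher (median -0.51), and of 86 cytoplasmic ribosomal protein genes, 67 were lower and 8 higher (median -0.90). Of the 35 members, 18 were lower and 7 higher (median -0.27), and 3 were higher without RIP replicate 3. Of the 30 members without the suffix L, 18 were lower (60.0%) and 7 higher (median -0.41). Rises made up 27.0% of all tested genes and 21.7% of protein-coding genes in their length range, shares close to that of the members.

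**Figure D5:**
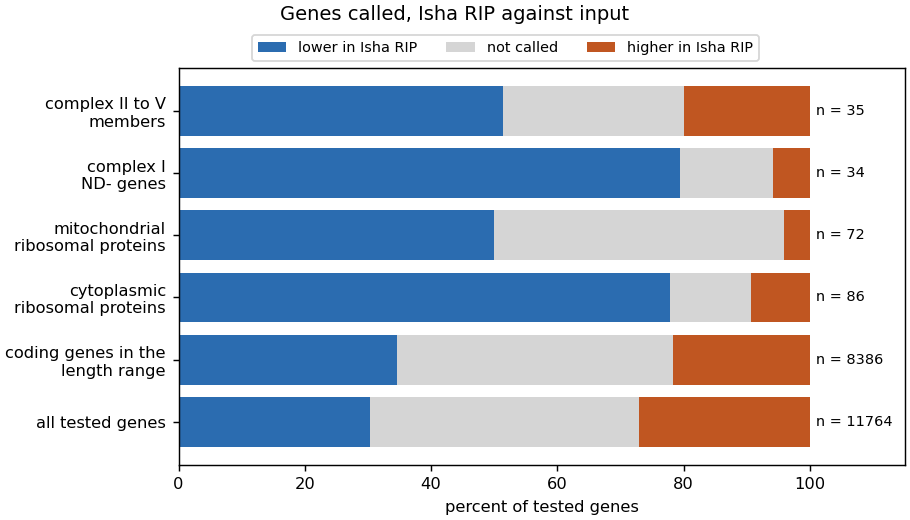
Percent of tested genes called lower, not called and called higher in Isha RIP against input (edgeR adjusted p under 0.05), for the members, 3 like gene groups, protein-coding genes in the length range of the members, and all tested genes; n is the number of tested genes. The members have 51.4% lower and all tested genes 30.4%.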

How the data were processed

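The authors deposited raw read counts per gene for 3 Isha RIP and 3 input libraries, with FlyBase identifiers and summed exon lengths. Per the submitters' processing notes, the build was dm6 and the tools included HISAT2 2.2.1, Subread 2.0.0 with featureCounts, Picard 2.22.2 and cutadapt 2.9. No source used here gives the annotation version, the strand setting or the treatment of duplicates and multiply mapped reads, which could move counts between overlapping or near-identical genes. Of the 17612 genes, 16995 were named by coordinates and 191 by identifier from RefSeq's table of the same assembly, and 426 kept their identifiers. Sequences were not used here.

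The counts were filtered with filterByExpr (minimum count 10), scaled with TMM factors (0.987 to 1.01) and tested with edgeR 4.0.16 in R 4.3.3 (quasi-likelihood F-test, group as the only term, 2-sided, Benjamini-Hochberg over all 11764 tested genes). Each standard error is the absolute log2 fold change divided by the root of its F statistic. DESeq2 1.42.0, limma 3.58.1, other scalings and filters, a replicate block, a length offset, thinning, leaving out overlapping genes and leaving out each library were alternatives. The workflow was tested on simulated data. Replicate libraries differed beyond counting noise in all pairs (chi-square over degrees of freedom 5.78 to 14.3).

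The members and the gene lists were chosen with earlier results of these data known. Of the pathway lists, names without a match in the table (such as Ccdc56, Tim10 and Tim44) were left out. In each complex full values were given to the members with the lowest and highest log2 fold change, the smallest adjusted p and the highest input level per length, to L paralogs of at least 1 CPM and to members called against the majority; other members were named after their values were seen. In the other lists, the 3 called genes with the smallest adjusted p, and at most 2 called in the other direction, were named.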

Additional observations from a re-analysis of the deposited data

How the results depend on the processing

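Of the 25 called members, 19 were called the same way under every alternative that could be run (16 for most members). The call was lost under some alternatives for 6, and 0 changed direction. Those 6 were SdhB and COX6B among the 18 lower calls, and Cyt-c1, UQCR-14, COX5B and ATPsyndelta among the 7 higher calls. Without genes whose exons overlap another gene, fewer genes entered: 12 of 21 members were called, 9 lower and 3 higher, with a median of -0.17. Of 7670 genes, 4396 were called, 2343 lower and 2053 higher. Members without an overlap held 0.232% of the full library totals in RIP and 0.264% in input. As a share of protein-coding counts, all members together held 0.341% in RIP and 0.444% in input. With a strict count filter the median was -0.35. Leaving out each library gave 20 to 23 called members, 16 to 18 lower and 3 to 6 higher, a median of -0.38 to -0.22, 6112 to 6567 called genes (3204 to 3533 lower, 2908 to 3034 higher), and a share of 0.322% to 0.327% in RIP and 0.395% to 0.398% in input. Of these, the 3 higher members came without RIP replicate 3 and the median of -0.38 without RIP replicate 2. Members that were not called could change sign: SdhA was at 0.00135 with library totals only, 0.0144 with protein-coding genes only, 0.00479 when thinned to equal depth and 0.0172 by DESeq2, ATPsynD at 0.0811 with the length offset, and leaving out each library gave -0.0784 to 0.289 for COX5BL and -0.204 to 0.833 for COX7CL. The cause was not tested. ATPsynG was called higher under 6 alternatives (0.13 to 0.22 over all) and UQCR-11 under 5. Pairing of libraries by replicate number was not detected (correlations of deviations of same-numbered libraries -0.012, -0.054 and -0.012). Such values cannot show whether same-numbered libraries came from the same extract, since noise of single libraries can hide it. With the replicate block 24 members were called, 18 lower and 6 higher, COX5B being lost. RIP libraries were less deep, so 1 count was worth 0.0697 to 0.119 CPM in RIP and 0.0316 to 0.0341 CPM in input, which limits the L paralogs.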
